A study of Mus musculus with 87 samples.

Results

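Six3, Emx1, Emx2, Otx1, En1, En2, Gbx2 and Egr2 are transcription factor genes that mark positions along the front-to-back axis of the developing mouse brain. They were taken as a list by name, and all 8 were found among the 26171 gene symbols of each of 13 deposited RNA-seq comparisons. Mouse embryonic stem cells (ESC) of the line 129-B13 were kept in serum with LIF, and neuronal precursors (NP) were derived from them. Both were studied by polyA RNA-seq (32 samples, 18 of ESC and 14 of NP). ChIP-seq (55 samples) was made of ESC only. The series altered SUZ12, a core subunit of Polycomb repressive complex 2 (PRC2), and the splicing of exon 4 of its gene, which separates a long from a short SUZ12 isoform.

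The RNA-seq groups were as follows. WT cells are unedited. CSex4 cells carry exon 4 constitutively in Suz12, and Deltaex4 cells lack that exon. KO cells are full Suz12 knock-outs. KO-L and KO-S cells are the same knock-out with the long or the short isoform added back, and cells labelled KO-L3D and KO-S3D received these isoforms, from the Rosa26 locus, with a mutation called 3D downstream of exon 4. The rescue lines therefore share the Suz12 deletion with the KO. ESC groups held 3 samples (WT, KO) or 2 samples (CSex4, Deltaex4, KO-L, KO-S, KO-L3D, KO-S3D). NP groups held 4 samples for WT and 2 samples for each of the other 5 lines (there were no 3D lines in NP). NP were made by growing ESC as embryoid bodies, adding retinoic acid at day 4 and harvesting at day 8. The labels do not say whether the samples of a group came from separate clones or cultures, so the p-values below measure the spread between these samples, which may be technical.

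In the vertebrate brain, Six3, Emx1, Emx2 and Otx1 act in the forebrain and, for Otx1, the midbrain, En1 and En2 act at the midbrain-hindbrain boundary, Gbx2 acts on the hindbrain side of that boundary, and Egr2 acts in rhombomeres of the hindbrain. Forebrain and hindbrain factors repress one another, and retinoic acid pushes neural tissue toward hindbrain and spinal fates. PRC2 methylates lysine 27 of histone H3 (H3K27me3) at such developmental genes while they are silent, and their promoters are typically rich in CG dinucleotides, where PRC2 is recruited.

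The promoters of 4 of these genes are shown because they span the range of CG content among the members and lie in deposited PRC2 regions. Each is the 250 bases upstream of a RefSeq transcription start (assembly GRCm38.p6), written 5′ to 3′ on the gene's strand, with every CG in capitals. CG, the motif searched, reads the same on both strands. The windows are chr17:85620584-85620833 (plus strand) for Six3, chr6:85187681-85187930 (plus) for Emx1, chr1:120602237-120602486 (plus) for En1 and chr1:89931177-89931426 (minus) for Gbx2.
Six3: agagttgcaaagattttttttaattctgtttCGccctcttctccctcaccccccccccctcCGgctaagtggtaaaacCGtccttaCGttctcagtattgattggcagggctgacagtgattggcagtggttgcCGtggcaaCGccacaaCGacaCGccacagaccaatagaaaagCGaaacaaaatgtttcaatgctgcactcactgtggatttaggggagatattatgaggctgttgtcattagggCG
Emx1: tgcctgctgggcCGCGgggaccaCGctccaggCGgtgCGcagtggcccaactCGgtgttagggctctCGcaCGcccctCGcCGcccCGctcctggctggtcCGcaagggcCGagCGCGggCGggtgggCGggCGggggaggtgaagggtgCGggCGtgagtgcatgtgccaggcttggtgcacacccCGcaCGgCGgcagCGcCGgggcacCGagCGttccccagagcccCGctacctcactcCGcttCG
En1: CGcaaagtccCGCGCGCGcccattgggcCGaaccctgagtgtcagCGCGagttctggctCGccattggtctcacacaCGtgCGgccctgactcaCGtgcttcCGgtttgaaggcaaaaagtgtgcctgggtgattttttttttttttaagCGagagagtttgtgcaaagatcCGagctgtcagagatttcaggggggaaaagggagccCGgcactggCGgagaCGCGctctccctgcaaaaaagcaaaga
Gbx2: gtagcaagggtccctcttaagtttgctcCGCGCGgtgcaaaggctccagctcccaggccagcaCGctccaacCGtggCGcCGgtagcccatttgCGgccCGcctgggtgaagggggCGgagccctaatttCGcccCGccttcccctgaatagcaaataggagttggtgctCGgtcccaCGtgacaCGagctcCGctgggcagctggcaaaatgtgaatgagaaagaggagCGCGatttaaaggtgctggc

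RefSeq promoters were at hand for 6 of the 8 genes, which leaves out Otx1 and En2. The Emx1 window holds 30 CG, and 5.94% of the 32851 mouse promoter windows of the same length hold as many. The Emx2 window holds 24 CG (12% of windows hold as many), the En1 window 19 (19.7%) and the Gbx2 window 18 (21.7%). The Six3 window holds 10 CG, which 37.8% of windows reach, and the median window holds 6. At Egr2, the windows of 5 annotated starts hold between 15 and 26 CG. All promoters shown lie within a deposited Suz12 region over their whole 250 bases. They also lie wholly within H3K27me3 regions, apart from the Gbx2 window, of which 199 bases do.

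Levels are given per library as scaled reads, which are whole reads divided by a size factor for sequencing depth. The reads were worked out from the deposited means. Libraries were placed in groups by the deposited changes of genes with a single read, and matched across comparisons by equal reads. The mean total was between 26085140 and 31499803 scaled reads per library over the 13 comparisons. The letters a to d tell the libraries of a group apart and do not correspond to replicate numbers. ESC and NP levels are on separate scales and are not compared. Scaled reads are not corrected for gene length, so levels are compared between groups and not between genes. Fold changes, standard errors (SE) and adjusted p-values are from the authors' deposited tables, where a gene is called at an adjusted p under 0.05 over all genes tested. Every pair of libraries of 1 group differed by more than counting noise, least in NP CSex4 (1.5 times the counting variance) and most in ESC KO-S3D (10.5 times). In the authors' deposited tables, Suz12 itself fell by 1.82 ± 0.22 (log2, SE) in the ESC KO and by 2.14 ± 0.33 in the NP KO against WT. Whether these reads lie outside the deleted stretch is not known. Among the ESC rescue lines, Suz12 differed from WT by -1.05 ± 0.28 in KO-L, -0.83 ± 0.27 in KO-S, -1.85 ± 0.28 (adjusted p = 3.84e-09) in the libraries labelled KO-L3D and -0.06 ± 0.42 (adjusted p = 0.974) in KO-S3D, per the authors' deposited tables. Suz12 RNA in the libraries labelled KO-L3D was thus as low as in the KO, and lower than in the other ESC rescue lines. Whether reads of the added isoforms were counted is not given in the sources used here. These values therefore do not show whether the added isoform was expressed. In NP, Suz12 was higher than in KO by 1.35 ± 0.21 in KO-L and by 1.09 ± 0.20 in KO-S, per the authors' deposited tables.

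Six3, which specifies the eye field and anterior forebrain, was higher in NP without SUZ12 and in NP without exon 4. The 4 WT libraries of NP held 4.46, 49.8, 16.4 and 53.3 scaled reads, and the KO libraries 92.3 and 118. The Deltaex4 libraries held 87.3 and 350.1, and the CSex4 libraries 7.90 and 6.72. The KO and Deltaex4 libraries therefore all lay above every WT library, while the CSex4 libraries lay within the WT range, which itself spans more than 10-fold.

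Adding either isoform back lowered Six3. The KO-L libraries held 11.6 and 28.7 scaled reads, within the WT range, and the KO-S libraries held 2.05 and 3.20, below every WT library. In the authors' deposited tables Six3 rose by 3.44 ± 0.72 (log2, SE, adjusted p = 0.00305) in Deltaex4 and by 2.66 ± 0.96 (adjusted p = 0.0291) in KO against WT. Against KO its change was -2.5 ± 0.72 (adjusted p = 0.00323) in KO-L and -5.34 ± 0.95 (adjusted p = 2.55e-07) in KO-S, per the authors' deposited tables. In CSex4 the deposited change was -1.12 ± 1.37 (adjusted p = 0.852), and Six3 did not pass the test. The authors' deposited table that sets the other pair of WT libraries, c and d, against KO gave -1.81 ± 0.73 (adjusted p = 0.0416).

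The size of the Six3 difference depended on single libraries. As a ratio of scaled reads (log2, with 1 added to each group mean), Deltaex4 exceeded WT by 2.97, by 1.65 without Deltaex4 library b, by 2.11 without WT library a, by 3.64 without Deltaex4 library a and by 5.33 without WT library b. The same ratio of KO to WT was 1.92, and was 1.07 without WT library a and 4.28 without WT library b. With all 4 WT libraries it was 2.78 for Deltaex4 and 1.73 for KO. The ratio of KO-L to KO was -2.33, and -3.07 without KO-L library b. For WT libraries c and d against KO it was -1.57, -0.97 without WT library c and -2.61 without WT library d. All of these kept the sign of the deposited change, which was fixed in advance because the libraries of the compared groups did not overlap. WT library a, the lowest in Six3, also stood apart from WT libraries b, c and d in some cell markers. It held 119 scaled reads of the neuron marker Snap25 against 528 to 862, and 567 of Hes5 against 1125 to 2154. It held 691 of the trophoblast marker Gata3 against 174 to 361, and 364 of the ESC marker Tdgf1 against 55.3 to 102. The neural precursor marker Sox1 was not apart, at 779 against 569 to 1011. Of other trophoblast markers, Esx1 stood apart (549 against 96.2 to 231). Elf5 (120) and Cdx2 (165) were close to WT library c (115 and 166). The Deltaex4 libraries also differed from each other. Library b, the higher in Six3, held 1702 scaled reads of Hes5 against 822 in library a. It held 30.6 of the trophoblast marker Elf5 against 248, and 98.1 of the mesoderm marker Hand1 against 875. The mesoderm markers Meox1 (738 against 294), Kdr (417 against 315) and T (5.27 against 1.92) went the other way from Hand1. Tbx6 (28.5 against 39.4) went with Hand1, and no Mesp1 read was counted. Snap25 was lower in library b, at 388 against 559. The part of these differences in the Six3 values was not tested.

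Six3 overlaps a non-coding gene, Six3os1, in the RefSeq annotation. Whether reads were counted by strand is not given in the sources used here, so reads from the 2 genes cannot be told apart where they overlap. In the authors' deposited tables Six3os1 changed by 2.76 ± 0.57 (log2, SE, adjusted p = 0.00263) in Deltaex4 and by -3.66 ± 0.84 (adjusted p = 0.000104) in KO-S against KO. In KO-L against KO its change was -2.39 ± 0.73 (adjusted p = 0.00659), per the authors' deposited table. In KO against WT libraries a and b its deposited change was 1.47 ± 0.90 (adjusted p = 0.262), which did not pass, and WT libraries c and d against KO gave -1.81 ± 0.75 (adjusted p = 0.0487), which did, in the authors' deposited tables. Otx1 and Egr2 each overlap 1 non-coding gene that is not a row of the tables, and the other 5 members overlap no annotated gene.

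Otx1, a homeobox gene of the forebrain and midbrain, had the largest deposited fold changes of the 8 genes in NP in KO against WT libraries a and b, KO-L against KO and KO-S against KO. With WT libraries c and d against KO, Emx1 was slightly ahead of it (-3.69 against -3.62), in the authors' deposited table. The WT libraries held 8.03, 16.6, 8.51 and 14.1 scaled reads, and the KO libraries 142 and 127. Both KO libraries thus lay far above every WT library. The KO-L libraries held 2.11 and 11.2, and the KO-S libraries held 1 read each (1.03 and 1.07 scaled reads).

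Otx1 rose by 3.52 ± 0.80 (log2, SE, adjusted p = 0.000145) in KO against WT, per the authors' deposited table. Against KO its change was -4.55 ± 0.83 (adjusted p = 5.32e-07) in KO-L and -7.01 ± 1.20 (adjusted p = 7.44e-08) in KO-S, per the authors' deposited tables. With WT libraries c and d against KO, the authors' deposited table gave -3.62 ± 0.73 (adjusted p = 7.14e-06). As a ratio of scaled reads, KO-L differed from KO by -4.15, by -3.47 without KO-L library a and by -5.45 without KO-L library b. The single reads of the KO-S libraries make the size of that fall imprecise, and the ratio of scaled reads put it at -6.05.

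The exon 4 lines showed no called change of Otx1. CSex4 libraries held 7.90 and 11.2 scaled reads, the first just below the lowest WT library and the other within the WT range. Deltaex4 libraries held 6.72 and 65.4, one below and one above every WT library. The deposited change in Deltaex4 was 0.92 ± 1.31 (adjusted p = 1.00) in the authors' deposited table. CSex4 had no adjusted p for Otx1.

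Emx1 and Emx2 are paralogous genes of the dorsal forebrain. Emx1 had few reads: 5.35, 2.93, 0.65 and 3.02 scaled reads in WT, 16.2 and 22.7 in KO, 4.10 and 4.26 in KO-S, 0 and 8.73 in KO-L, 8.89 and 7.84 in CSex4, and 0 and 7.38 in Deltaex4. The KO libraries were the highest, yet no comparison of NP called Emx1. The deposited change of KO against WT libraries a and b was 2.27 ± 1.69 (adjusted p = 0.381), and that of WT libraries c and d against KO was -3.69 ± 1.77 (unadjusted p = 0.0373, adjusted p = 0.0977), in the authors' deposited tables.

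Emx2 was highest in KO-S. Its KO-S libraries held 610.4 and 489 scaled reads against 142 and 151 in KO, 128 and 133 in KO-L, and 128, 278, 317 and 283 in WT. CSex4 libraries held 109.6 and 118, and Deltaex4 libraries 316 and 563. The KO-S libraries lay above all WT, KO, KO-L and CSex4 libraries, and overlapped those of Deltaex4. Emx2 rose by 1.90 ± 0.32 (log2, SE, adjusted p = 3.39e-08) in KO-S against KO in the authors' deposited table, while KO-L against KO gave -0.17 ± 0.47 (adjusted p = 0.866). KO against WT libraries a and b gave -0.37 ± 0.57 (adjusted p = 0.731), in the authors' deposited table. WT libraries c and d against KO gave 1.03 ± 0.44 (unadjusted p = 0.0186, adjusted p = 0.0554) in theirs. Neither passed. Deltaex4 against WT gave 1.16 ± 0.45, with an unadjusted p of 0.00945 and an adjusted p of 1.00 in the authors' deposited table.

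En1 and En2 encode Engrailed homeodomain proteins that pattern the midbrain and cerebellum. No NP comparison called either of them. En1 lay between 25.4 and 48.2 scaled reads in the WT libraries, at 58.9 and 76.1 in KO, at 43.1 and 45.8 in KO-S, at 43.3 and 27.4 in KO-L, at 31.6 and 32.5 in CSex4, and at 47.0 and 53.8 in Deltaex4. Both KO libraries were above every WT library, and the deposited change of 1.17 ± 0.88 (adjusted p = 0.387) in the authors' deposited table was of the size of its error.

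En2 lay between 73.2 and 100.2 scaled reads in WT. Both exon 4 lines were above that range, at 196 and 204 in CSex4 and at 214 and 304 in Deltaex4. KO-S libraries held 226 and 169, KO libraries 85.2 and 159, and KO-L libraries 76.0 and 46.1. The authors' deposited tables gave 1.27 ± 0.53 (log2, SE, unadjusted p = 0.0160, adjusted p = 0.167) for CSex4 and 1.62 ± 0.55 (unadjusted p = 0.00291, adjusted p = 0.640) for Deltaex4. Neither passed the correction over all genes.

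Gbx2, which sets the anterior limit of the hindbrain, had fewer reads in every KO and KO-L library of NP than in any WT or KO-S library. The WT libraries held 523, 608, 748 and 809 scaled reads, the KO libraries 356 and 343, and the KO-L libraries 233 and 228. The KO-S libraries, at 666 and 754, lay within the WT range. CSex4 libraries held 318 and 388, below every WT library, and Deltaex4 libraries 594 and 652, within the WT range.

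In the authors' deposited tables Gbx2 was higher by 1.02 ± 0.26 (log2, SE, adjusted p = 0.000672) in KO-S than in KO, and by 1.15 ± 0.34 (adjusted p = 0.00298) in WT libraries c and d than in KO. The table with WT libraries a and b gave -0.69 ± 0.42 (adjusted p = 0.255) for KO against WT, so the call rests on which pair of WT libraries was used. KO-L against KO gave -0.60 ± 0.35 (adjusted p = 0.225), and CSex4 against WT gave -0.68 ± 0.39 (adjusted p = 0.410), in the authors' deposited tables.

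Egr2, a zinc-finger gene needed for rhombomere identity, had few reads in all NP groups. WT libraries held 8.92, 9.76, 3.27 and 1.00 scaled reads, KO libraries 19.3 and 17, KO-L libraries 21.1 and 17.5, KO-S libraries 3.08 and 4.26, CSex4 libraries 1.98 and 8.96, and Deltaex4 libraries 8.64 and 3.16. The KO and KO-L libraries lay above all others. No comparison called Egr2, and the deposited change nearest to a call was -3.23 ± 1.78 (adjusted p = 0.159) for WT libraries c and d against KO in the authors' deposited table.

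**Figure D1:**
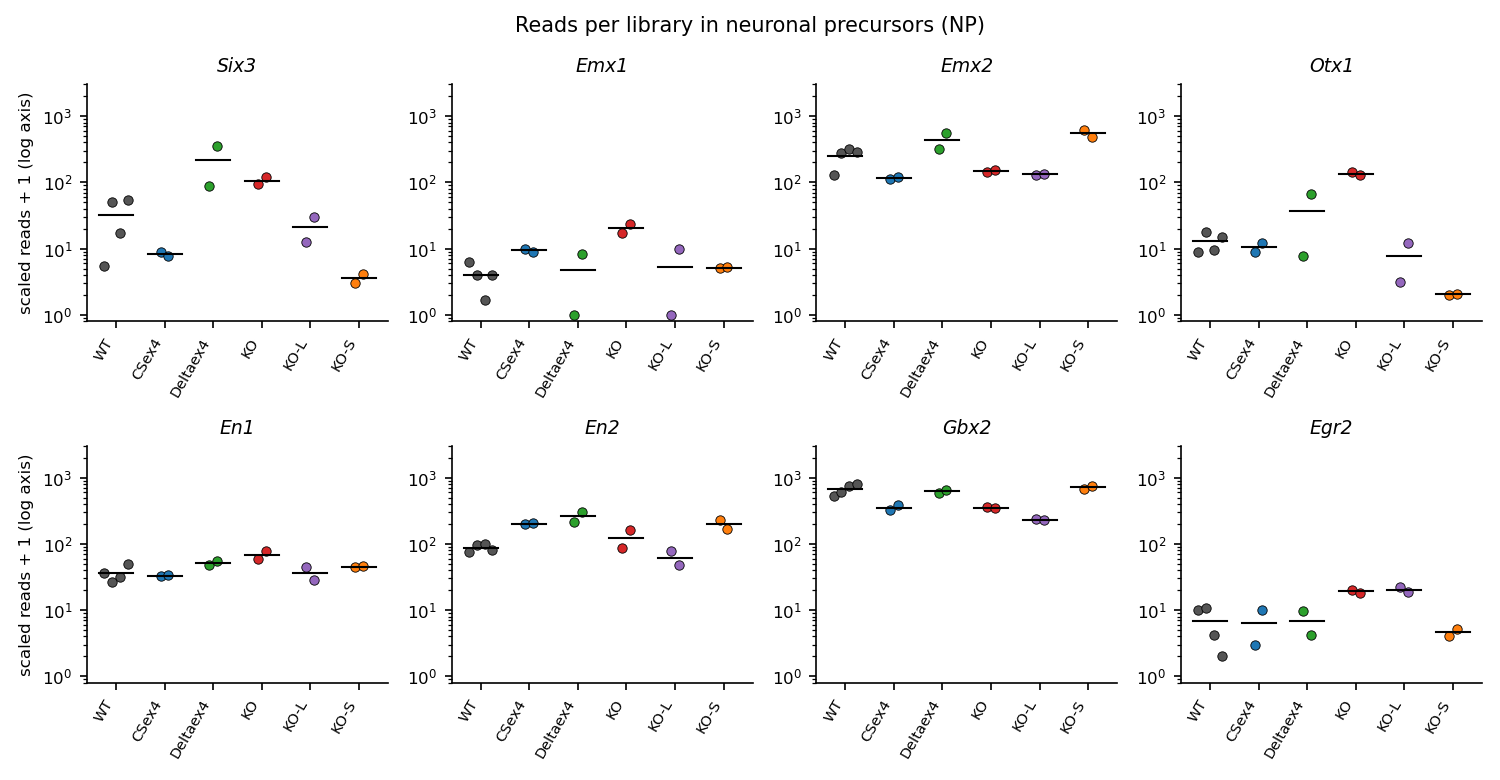
Scaled reads plus 1 (log axis) of the 8 genes in each NP library, by group. Points are libraries and black lines are group means. Otx1 lies at 142 and 127 scaled reads in KO and at 1.03 and 1.07 in KO-S, and Gbx2 lies at 233 and 228 in KO-L, below all other groups.

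Ordered by mean, KO stood first for Otx1, Emx1 and En1, Deltaex4 for Six3 and En2, KO-S for Emx2 and Gbx2, and KO-L for Egr2. For Otx1, KO at 135 ± 10.4 scaled reads (SD, n = 2) did not overlap the next group, Deltaex4 at 36.1 ± 41.5 (SD, n = 2). The middle of the Otx1 order, Deltaex4, WT (11.8 ± 4.21, SD, n = 4), CSex4 (9.55 ± 2.33, SD, n = 2) and KO-L (6.67 ± 6.44, SD, n = 2), overlapped from each group to the next. For Six3, Deltaex4 at 219 ± 186 (SD, n = 2) overlapped KO at 105 ± 18.3 (SD, n = 2), and KO did not overlap WT at 31.0 ± 24.3 (SD, n = 4). For Gbx2, KO-S at 710.0 ± 62.5 (SD, n = 2), WT at 672 ± 130.3 (SD, n = 4) and Deltaex4 at 623 ± 40.7 (SD, n = 2) overlapped in turn, and KO-L at 231 ± 3.64 (SD, n = 2) did not overlap KO at 350 ± 9.14 (SD, n = 2).

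Counted over the list, the authors' deposited tables called 2 of the 8 genes higher and none lower in NP KO against WT, where 21.4% of all genes tested were called (11.6% higher, 9.85% lower). The median log2 change of the 8 was 1.06 (-0.01 over all genes tested). With WT libraries c and d against KO, 1 was higher in WT and 2 were lower, where 32.9% of all genes were called (15.6% higher, 17.3% lower). In KO-S against KO, 2 were higher and 2 lower, against 34.5% of all genes (16.4% higher, 18% lower), and in KO-L against KO 2 were lower, against 24.7% (10.9% higher, 13.8% lower). In Deltaex4 against WT the single call, Six3, was 1 of 14 called genes among 17315 tested (0.0809%, with 0.0289% higher and 0.052% lower). In CSex4 against WT the deposited test called none of the 5 genes with an adjusted p, 1 had an unadjusted p under 0.05, and 5.53% of all genes were called (4.08% higher, 1.45% lower). With 8 members, the counts in the knock-out and rescue comparisons are near the share of all genes called and are not a result about the list.

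**Figure D2:**
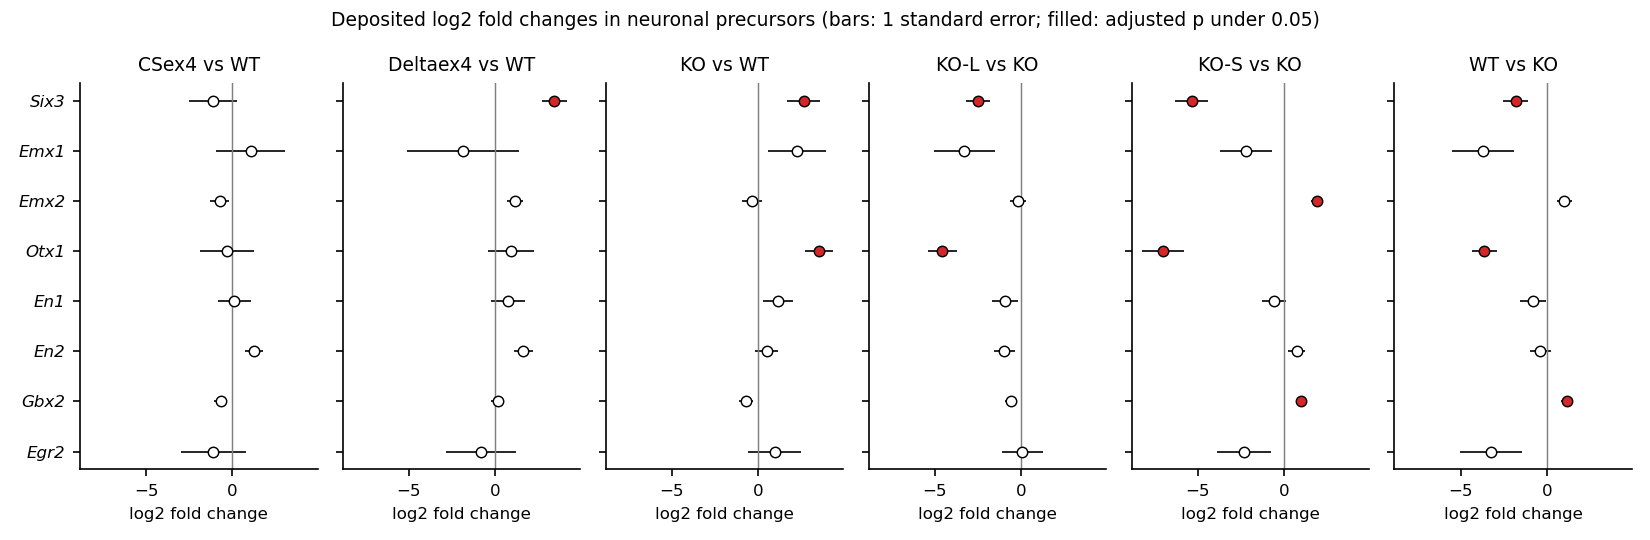
Deposited log2 fold changes of the 8 genes in the 6 NP comparisons, with bars of 1 standard error. Filled points passed an adjusted p under 0.05. Otx1 and Six3 are the filled points above 0 in KO vs WT and below 0 in KO-L vs KO and KO-S vs KO, and Emx2 and Gbx2 are filled above 0 in KO-S vs KO.

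Whether the isoforms differed was tested on the difference of the deposited changes of KO-S and KO-L against KO. These comparisons share the KO libraries. The change in KO-S exceeded that in KO-L by 2.07 ± 0.57 (log2, SE, 95% interval 0.96 to 3.18, adjusted p = 0.00656) for Emx2 and by 1.62 ± 0.44 (0.76 to 2.48, adjusted p = 0.00548) for Gbx2. These were 2 of the 8 genes, where 7.03% of all genes differed. For Six3 the difference was -2.84 ± 1.19 (adjusted p = 0.161) and for Otx1 -2.46 ± 1.46 (-5.31 to 0.40, adjusted p = 0.462). Six3 and Otx1 were lower in both KO-S libraries than in both KO-L libraries, but the difference did not pass. En2 gave 1.71 ± 0.78 (adjusted p = 0.227) and did not pass either.

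Between CSex4 and Deltaex4, which share WT libraries a and b, the test of the difference called none of the 8 genes, 2 had an unadjusted p under 0.05, and 1.22% of all genes differed. For Six3 the CSex4 change minus the Deltaex4 change was -4.56 ± 1.55 (log2, SE, 95% interval -7.60 to -1.52, adjusted p = 0.143). For Emx2 the interval was -3.27 to -0.52 (adjusted p = 0.226). In both genes the CSex4 libraries lay below the Deltaex4 libraries, as given above. The share of all genes that separate in this way was not computed. The shared WT libraries tend to make the SE of the difference too large. The absence of a call therefore does not show that the lines are alike.

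Other genes of the same brain regions were read from 4 lists. KO against WT here means WT libraries a and b unless c and d are named. The counts stand beside the share of all genes tested that was called. That share was 21.4% in KO against WT and 32.9% with WT libraries c and d. It was 34.5% in KO-S against KO, 24.7% in KO-L against KO and 5.53% in CSex4 against WT. Of 20 hindbrain and rhombomere genes, 10 fell and 1 rose in NP KO against WT, with a median log2 change of -2.21. Hoxd3, a Hox gene of the hindbrain, fell by 5.40 ± 0.41 (log2, SE) and Ptf1a, a factor of the cerebellar and dorsal hindbrain neuroepithelium, fell by 7.37 ± 1.30, in the authors' deposited table. Adding back the short isoform raised 13 and lowered 2 of the 18 list genes tested (Hoxd3 rose by 4.86 ± 0.25), and the long isoform raised 10 and lowered 3 of 18 (Hoxa2 rose by 2.80 ± 0.40), in the authors' deposited tables. Against KO, 13 of 19 were higher and 1 was lower in WT libraries c and d. In CSex4, 5 of 19 fell and none rose. Hoxd4, for example, fell by 1.25 ± 0.41 and Epha4, a receptor with rhombomere-restricted expression, fell by 1.24 ± 0.34 in the authors' deposited table.

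Forebrain factors outside the members were split in direction. In KO against WT, 3 of 16 tested rose and 4 fell: Vax1 rose by 3.22 ± 1.04 and Dlx5 by 2.87 ± 1.11, while Six6 fell by 4.84 ± 1.08 and Lhx5 fell by 3.79 ± 0.65, in the authors' deposited table. Against KO, 4 of 17 were higher and 6 were lower in WT libraries c and d. In KO-S against KO, 3 of 15 rose and 5 fell, with Six6 up by 7.11 ± 0.70 and Dlx2 down, at -5.33 ± 1.20, in the authors' deposited table. In KO-L against KO, 3 of 16 rose and 6 fell. In CSex4, 1 rose (Eomes, 2.05 ± 0.50) and 1 fell (Pax6, -1.33 ± 0.33) of 8 tested, in the authors' deposited table.

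Midbrain and isthmus genes were also split. In KO against WT, 2 of 10 tested rose and 3 fell, among them Wnt1 at -6.90 ± 0.55 and Pax5 at -5.62 ± 0.70, which encode a signal and a factor of the midbrain-hindbrain boundary, in the authors' deposited table. With WT libraries c and d, 4 of 11 were higher in WT than in KO and 3 were lower. Wnt1 and Pax5 rose with the long isoform (Wnt1 by 4.19 ± 0.70, Pax5 by 4.02 ± 0.75) and with the short (Wnt1 by 4.61 ± 0.62, Pax5 by 5.27 ± 0.58), in the authors' deposited tables. En1 and En2 of the same territory, as given above, were called in none of these comparisons. Of posterior signals and retinoic acid response genes, 3 of 11 rose and none fell in KO against WT, including Cdx2 (2.16 ± 0.45) and Aldh1a2, an enzyme that makes retinoic acid (1.69 ± 0.49), in the authors' deposited table. Cdx2 is also on the list of trophoblast markers, of which 5 of 6 rose in the same comparison. With WT libraries c and d, 3 of 11 were lower in WT than in KO and 1, the retinoic acid receptor gene Rarb, was higher (0.95 ± 0.25, adjusted p = 0.00105), in the authors' deposited table. The counts of posterior genes in these comparisons are near the share of all genes called and are not a result about that list.

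In Deltaex4 against WT none of the genes of these 4 lists was called by the deposited test, of 18 forebrain, 12 midbrain, 20 hindbrain and 10 posterior genes tested. At an unadjusted p under 0.05 there were 5, 0, 3 and 2.

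**Figure D3:**
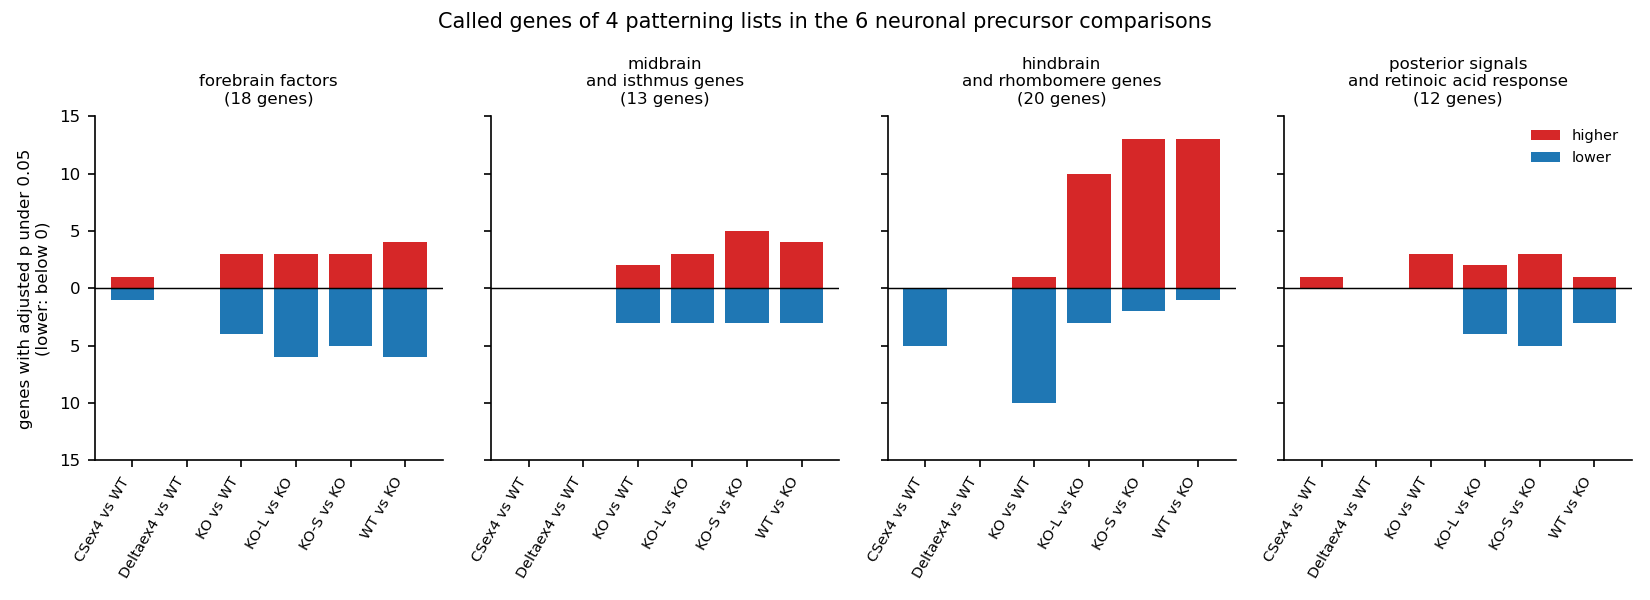
Number of genes of 4 lists with an adjusted p under 0.05 in each NP comparison, higher above 0 and lower below 0. Of the hindbrain and rhombomere genes, 10 are lower in KO vs WT, and 10 and 13 are higher in KO-L vs KO and KO-S vs KO.

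Markers of the cells in these bulk samples moved in the same comparisons. Of all genes tested, 21.4% were called in KO against WT libraries a and b, and 32.9% with WT libraries c and d. In NP KO against WT libraries a and b, 7 of 8 neural precursor markers and 5 of 6 neuron markers fell, 5 of 6 trophoblast markers rose, 3 of 6 endoderm markers rose and 1 fell, 2 of 7 markers of undifferentiated ESC rose, and no mesoderm (5 tested) or neural crest (5 tested) marker was called in the authors' deposited table. Hes5, a Notch target of neural precursors, fell by 9.06 ± 0.95 and Dcx, a marker of young neurons, fell by 6.54 ± 1.72, while Elf5, a trophoblast factor, rose by 3.12 ± 0.56, in the authors' deposited table. WT libraries c and d against KO gave 7 of 8 neural precursor and 6 of 6 neuron markers higher in WT, and 6 of 6 trophoblast, 5 of 7 undifferentiated ESC, 3 of 6 endoderm and 2 of 5 mesoderm markers (Hand1 and Kdr) lower. It also gave 1 of 5 neural crest markers, Foxd3, higher in WT. In KO-S against KO (34.5% of all genes called), 8 of 8 neural precursor and 6 of 6 neuron markers rose and 5 of 6 trophoblast markers fell. Also lower were 4 of 6 endoderm, 3 of 7 undifferentiated ESC and 1 of 5 neural crest markers. Of 5 mesoderm markers, 1 rose and 2 fell. In KO-L against KO (24.7%), 5 of 8 neural precursor and 5 of 6 neuron markers rose and 1 neural precursor marker, Sox1, fell. Of 7 markers of undifferentiated ESC, 4 rose and 1 fell. Lower were 4 of 6 trophoblast and 4 of 6 endoderm markers. Of 5 mesoderm markers 2 rose, and of 5 neural crest markers 2 rose and 1 fell. In CSex4 against WT (5.53%), 5 of 8 neural precursor markers fell, no neuron marker was called, and 6 of 7 markers of undifferentiated ESC rose. Of 4 mesoderm markers tested there, 1 rose. In Deltaex4 no marker was called.

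Reads per library were recovered for 22 of the 44 markers, and were sought only where the mean was at most 1500 in every NP comparison. The 2 neural precursor markers so recovered were Hes5 and Sox1. Summed over them, WT libraries held 1346 to 3164 scaled reads, KO libraries 305 to 707, KO-L libraries 182 to 216, KO-S libraries 1443 to 1555, CSex4 libraries 645 to 669 and Deltaex4 libraries 2064 to 3682. The KO sum was almost all Sox1 (303 and 706), with Hes5 at 2.03 and 1.14. In KO-L, Hes5 was at 88.7 and 103 and Sox1 at 92.9 and 112, so the lower sum in KO-L came from Sox1 alone. Over 4 trophoblast markers, WT libraries held 520.0 to 1526, KO libraries 2931 to 4031, KO-L libraries 1017 to 1262, KO-S libraries 1313 to 1537, CSex4 libraries 1476 to 1563 and Deltaex4 libraries 389 to 1762. None of the recovered markers was at 0 throughout a group except 1 mesoderm marker in Deltaex4. Fewer cells of a type and less RNA per cell cannot be told apart in bulk RNA, and the part of cell composition in the results on the 8 genes was not tested.

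In ESC, 5 of the 8 genes were higher in the full knock-out. Otx1 went from 3.81, 3.99 and 4.48 scaled reads in the WT libraries to 82.7, 63 and 85.1 in KO. Six3 went from 0, 2.99 and 1.12 to 39.1, 24 and 27. Emx1 went from 0.95, 2.99 and 3.36 to 35.6, 23 and 43.6. For all of these, every KO library lay above every WT library.

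The Engrailed genes were also higher in the ESC KO. En2 was at 47.6, 76.9 and 72.8 scaled reads in WT and at 286, 209.8 and 235 in KO. En1 was at 7.62, 11 and 3.36 in WT and at 36.5, 33 and 46.7 in KO. Gbx2 went the other way: 462, 867 and 926 scaled reads in WT against 320.3, 294 and 369 in KO, so every KO library was below every WT library. Emx2 (10.5, 2.99 and 3.36 in WT, 13.3, 8.99 and 5.19 in KO) and Egr2 (21, 15 and 2.24 in WT, 16.9, 13 and 21.8 in KO) overlapped between the groups.

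The authors' deposited table gave log2 rises of 4.63 ± 1.16 (SE, adjusted p = 0.000960) for Six3, 4.23 ± 0.65 (adjusted p = 4.69e-09) for Otx1, 3.84 ± 0.93 (adjusted p = 0.000554) for Emx1, 2.48 ± 0.71 (adjusted p = 0.00484) for En1 and 1.90 ± 0.35 (adjusted p = 1.69e-06) for En2. Gbx2 fell by 1.14 ± 0.28 (adjusted p = 0.000570) in the same authors' deposited table. In all, 5 of the 8 rose and 1 fell, against 18.3% of all genes called (11% higher, 7.27% lower). The ratio of scaled reads for Six3 was 3.71 and was 4.31 without WT library b. The ratios of the other 5 called genes moved by less than 1.5-fold when any 1 library was left out. That of Emx2, which was not called, went from 0.62 to 1.28 without WT library a.

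The rescue lines of ESC had uneven libraries. Otx1 was at 3.16 and 3.31 scaled reads in KO-S, 23.5 and 2.15 in KO-L, 105.6 and 35.9 in KO-L3D, and 48.4 and 0 in KO-S3D. Library a was higher than library b for Otx1 and Six3 in KO-L, KO-L3D and KO-S3D, and Six3 was at 20.3 and 3.22, 50.8 and 13, and 16.1 and 2.39 in these lines. In KO-S no Six3 read was counted in either library, which allows up to 3 reads in each (counting error only). En2 was 93.8 and 140.1 in KO-S, at 312 and 89.2 in KO-L, 129 and 59.8 in KO-L3D, and 152 and 138 in KO-S3D.

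Of these, Otx1 rose by 3.88 ± 1.13 (log2, SE, adjusted p = 0.00673) in the libraries labelled KO-L3D, whose Suz12 was as low as in the KO, against WT in the authors' deposited table. Gbx2 fell by 1.11 ± 0.38 (adjusted p = 0.0241) in KO-L3D and rose by 0.86 ± 0.29 (adjusted p = 0.0450) in KO-S, per the authors' deposited tables. The libraries behind the Gbx2 values held 283 and 600.5 scaled reads in KO-L3D, 1757 and 1492 in KO-S, 493 and 437 in KO-L, and 478 and 1847 in KO-S3D. The KO-L3D libraries overlapped the WT range only through WT library a (462), which has little weight in the deposited change, as described below. Both KO-L3D libraries lay below WT libraries b and c (867 and 926). Both KO-S libraries lay above every WT library. As a ratio of scaled reads, Gbx2 in KO-L3D was at -0.77 against WT, at -0.32 without KO-L3D library a and at -1.41 without KO-L3D library b. Otx1 in KO-L3D was at 3.82, and at 2.86 without KO-L3D library a.

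**Figure D4:**
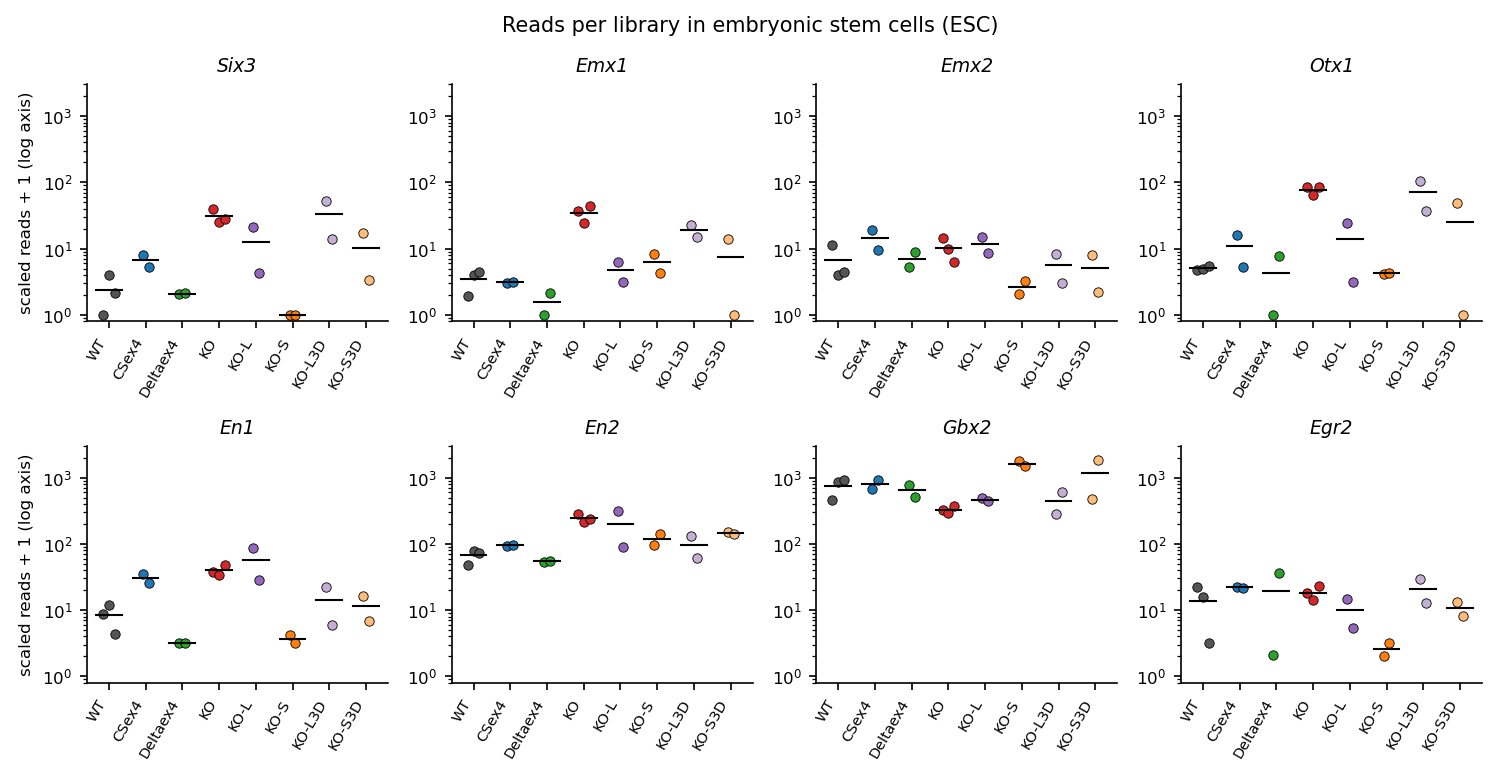
Scaled reads plus 1 (log axis) of the 8 genes in each ESC library, by group. Points are libraries and black lines are group means. The 3 KO libraries lie above the 3 WT libraries for Six3, Emx1, Otx1, En1 and En2, and below them for Gbx2.

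Counted over the list, the authors' deposited tables called 1 of 6 genes with an adjusted p higher and 1 lower in KO-L3D (18.3% of all genes called, 8.22% higher and 10.1% lower), and 1 of 2 higher in KO-S (7.91%, with 4.28% higher and 3.63% lower). None was called in KO-L (3 with an adjusted p, 2 with an unadjusted p under 0.05, 2.23% of all genes, 1.46% higher and 0.771% lower), in KO-S3D (2 with an adjusted p, 0 unadjusted, 3.23%, with 2.05% higher and 1.18% lower), in CSex4 (2 with an adjusted p, 0 unadjusted, 2.41%, with 1.72% higher and 0.695% lower) or in Deltaex4 (8 with an adjusted p, 0 unadjusted, 0% of 20263 genes). The 7 ESC comparisons share the WT libraries.

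In CSex4 ESC, En1 was at 34.5 and 25 scaled reads, above all WT libraries, with no adjusted p, and in Deltaex4 ESC it was at 2.15 and 2.23, below them. Their deposited changes were 2.22 ± 1.37 and -1.48 ± 2.42 in the authors' deposited tables. The test of the difference between CSex4 and Deltaex4 called none of the 8 genes, 0 were under an unadjusted p of 0.05, and 0.0502% of all genes differed.

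Between the ESC rescues, the difference of KO-S and KO-L was called for Gbx2 alone of the 8 genes, at 1.80 ± 0.45 (log2, SE, 95% interval 0.91 to 2.68, adjusted p = 0.00554), where 2.36% of all genes differed. Between the lines with and without the 3D mutation, none of the 8 genes was called by the test of the difference, with 0 unadjusted for either isoform. These lines also differ in Suz12 RNA, as given above, so the mutation and the Suz12 level cannot be told apart. For Gbx2 the change in KO-S3D minus that in KO-S was -0.78 ± 0.58 (-1.91 to 0.35), and for Otx1 that in KO-L3D minus that in KO-L was 3.04 ± 2.30 (-1.48 to 7.55). Of all genes, 2.84% differed between KO-L3D and KO-L and 0.44% between KO-S3D and KO-S.

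The effect of the knock-out was compared between NP and ESC by the difference of the deposited changes. None of the 8 genes differed, 0 had an unadjusted p under 0.05, and 9.65% of all genes differed. En2 came nearest, with an NP minus ESC difference of -1.41 ± 0.76 (log2, SE, 95% interval -2.90 to 0.09, adjusted p = 0.307). For Otx1 the interval was -2.72 to 1.32, for Six3 -4.91 to 0.98 and for Gbx2 -0.53 to 1.43, so differences of several fold lie within these intervals.

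Suz12 and H3K27me3 regions of the authors' DiffBind lists overlapped all 8 genes. All ChIP-seq samples were of ESC, so these regions do not describe NP. Over 20992 protein-coding genes of the tables, 11.7% overlapped a Suz12 region and 21.0% an H3K27me3 region, by at least 1 base. The regions were set against the RefSeq genes of GRCm38.p6, with the region coordinates taken to be mm10, the mouse build named in the submitters' processing notes. The lists do not say which group was compared with WT or in which direction a region changed.

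The widest regions lay over forebrain and Engrailed genes. Six3 (chr17:85613608-85626191) was covered whole by a Suz12 region of 21090 bases and an H3K27me3 region of 26917 bases. Otx1 (chr11:21994764-22001651) was covered whole by regions of 14108 and 22545 bases, and its Suz12 region had rank 10 of 2865 by the authors' value, the smallest value being rank 1. En1 (chr1:120602487-120607991) was covered whole by regions of 13654 and 25974 bases, and its H3K27me3 region had rank 19 of 6882. The H3K27me3 region of Emx2 (chr19:59458690-59465357), 25791 bases wide, also covered the whole gene, and Suz12 regions covered 87.6% of it. The median widths of all regions were 2307 bases for Suz12 and 3144.5 bases for H3K27me3.

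Emx1 (chr6:85187931-85204463) was covered over 41.0% by Suz12 and 48.2% by H3K27me3 regions, which lay over its promoter end. En2 (chr5:28165696-28172190) was covered over 91.7% and 99.8%. Egr2 (chr10:67534469-67542188) was covered over 84.2% and 89.2%, with best ranks of 523 and 728. Gbx2 (chr1:89927962-89931176) was the last by rank, at 1332 of 2865 for Suz12 and 4587 of 6882 for H3K27me3. Its H3K27me3 region, 3372 bases wide, covered the whole gene, and its Suz12 region, 5111 bases wide, covered 42.2% of it and extended past the promoter. That rank counts only regions over the gene itself. A second H3K27me3 region, chr1:89931244-89938551, with rank 1095 and 7308 bases wide, began 67 bases beyond the promoter end of Gbx2, and was the single region of either list found within 1000 bases of a member without overlapping it.

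**Figure D5:**
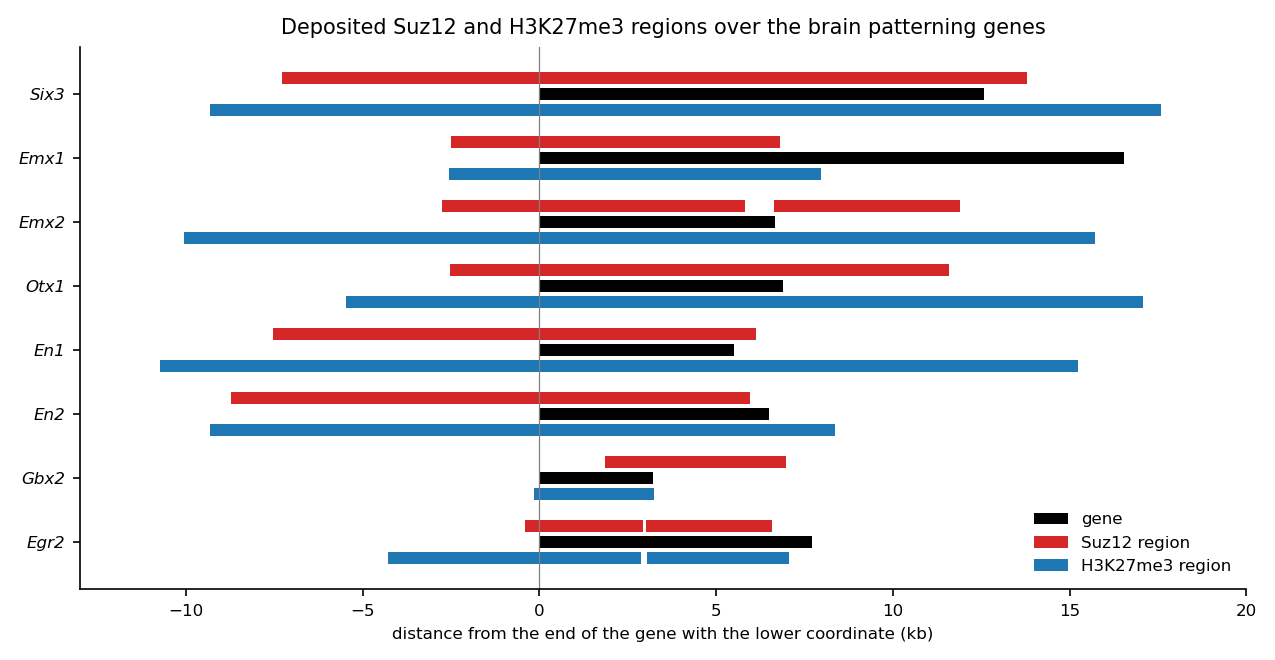
Deposited Suz12 (red) and H3K27me3 (blue) regions of ESC over each gene (black), as distance in kb from the gene's end with the lower coordinate. Six3, Otx1 and En1 lie inside regions of both lists, and the regions over Gbx2 are 5111 and 3372 bases wide, without the H3K27me3 region that begins 67 bases beyond that gene.

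Genes whose deposited log2 changes varied most like those of a member over the 13 comparisons were found among 7843 genes with a mean of at least 10 scaled reads in all 6 NP comparisons and a call in at least 1. The comparisons share WT and KO libraries, so the coefficients are descriptions. Otx1 was most like Hoxa10 (Pearson's r = 0.97), Dmrta2 (0.96) and Dlx5 (0.95). Six3 was most like Six3os1 (0.94), the gene it overlaps, and next Isl2 (0.91). Pcdh11x (0.91) and Glis3 (0.91) were among the 3 genes most like En1. Emx2 was most like Ssbp2, Lix1 (0.92 each) and Greb1 (0.91), Gbx2 like Pitpnc1 (0.90), Pacs2 (0.88) and Slc37a4 (0.88), and En2 less closely like Lmx1a (0.79), Arhgap10 (0.77) and Rassf4 (0.71). Emx1 and Egr2 were under that mean.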

How the data were processed

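RNA-seq comparisons of 7 ESC and 6 NP group pairs were analysed. Bowtie, TopHat, DESeq2 and DiffBind and the builds mm10 and dm3 are named in the submitters' processing notes, without versions. Annotation and strand settings are not given in the sources used here. The authors deposited, per gene, a mean signal over libraries (counts divided by size factors), a log2 fold change with its SE, and the p-value and adjusted p-value of their test, whose statistic is the log2 value divided by its SE. The deposited region lists give a score from 0 to 1 per region, at an FDR of 5% per the file headers. Per-sample ChIP-seq values were not analysed here.

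The deposited statistics were used as they are. Differences of log2 changes between comparisons were divided by the root of the summed squared SEs (two-sided normal p, Benjamini-Hochberg over all genes). Comparisons that share libraries are not independent, so this SE is inexact. Where they share their control libraries it tends to be too large, and the count of genes called different is then a low estimate. A check on simulated data drew independent errors for the NP and ESC knock-out comparisons, which share no libraries. It says nothing of comparisons that share libraries. Whole reads per library were computed from the mean signal, which is a sum of whole reads with 1 weight per library. The weights were read from genes with a single read. A solution was found for 500 of 500 genes tried in each comparison and for all members, and libraries shared by comparisons gave the same reads for 100% of genes (at most 14.75% for other pairs). Within each comparison, libraries were placed in groups by the deposited log2 change of genes with a single read. They were then matched across comparisons by equal reads, and could not be tied to replicate numbers. No count test was run on these reads. Each scale was tied across comparisons to within 1.25%.

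In 6 ESC comparisons, genes with a single read in WT library a had deposited log2 changes of about 0 (-0.23 to 0.06), against -1.21 to -1.53 for WT libraries b and c, so those changes rest on 2 WT libraries. The deposited tables are named as paired fits.

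A member was called at an adjusted p under 0.05. The members and lists were chosen with earlier results of these data known. Named genes are the members, Suz12, and of each list up to 2 called genes with the largest rise and 2 with the largest fall per NP comparison. A few genes that this rule names are not reported here. Alternatives were an adjusted p under 0.01, adjustment over all genes with a p-value, a mean signal of at least 10, the ratio of scaled reads plus 1, leaving out each library, and other WT libraries. Python 3.11.15, numpy 2.4.6, pandas 2.3.3, scipy 1.17.1 and matplotlib 3.10.9 were used.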

Additional observations from a re-analysis of the deposited data

How the results depend on the processing

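At an adjusted p under 0.01, the calls fell to 0 in ESC KO-S (Gbx2 lost), to 1 in ESC KO-L3D (Gbx2 lost) to 1 in NP KO against WT (Six3 lost) and from 3 to 2 with WT libraries c and d (Six3 lost). Adjustment over all genes with a p-value left 0 calls in ESC KO-S, and 2 with WT libraries c and d of NP (Six3 lost). Where no member was called, a stricter threshold cannot lower the count, so these settings say nothing of stability there.

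No new blocked fit was made, since libraries could not be tied to replicate numbers. The deposited changes of ESC groups with 2 libraries weigh WT libraries as a replicate block would. Without a replicate block, as a ratio of scaled reads plus 1, Gbx2 was at 1.11 in ESC KO-S and at -0.77 in ESC KO-L3D, and Six3 at 1.92 in NP KO. All 21 called changes kept their sign in this ratio and with each library left out, where the ratios ran from -6.13 (Otx1, NP KO-S) to 5.33 (Six3, NP Deltaex4). Apart from Gbx2 in ESC KO-L3D, the libraries of the compared groups did not overlap. Leaving 1 out could therefore not reverse the sign, which says nothing of stability. Of 608 alternative values of single genes, 551 moved by less than the spread between libraries and 57 by more, and none reversed a call. The 4 WT libraries of NP in place of 2 were chosen after seeing the data. Genes with few reads (Emx1, Egr2) allow only wide intervals.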
